A study of Rattus norvegicus with 34 samples.

Results

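The mitochondrial solute carrier family SLC25 was followed in the heart and the blood of rats given doxorubicin (DOX). All genes whose annotated symbol begins with Slc25a were taken, except Slc25a20, and 32 such genes of the 13337 with a symbol had a probe on the arrays. Of these, 21 had an average level above the limit for an expressed probe and were tested, among 6781 genes tested in all. The other 16 family genes of the RefSeq gene table were not analysed here, among them the mitoferrins Slc25a28 and Slc25a37. Female Sprague-Dawley rats, 17 in number, received a single intraperitoneal injection of 12 mg/kg DOX (n = 9) or saline (n = 8), and the left ventricle and the peripheral blood mononuclear cells (PBMC) were taken 48 h later. No genetic change was involved, and the age of the rats is not given in the sources used here. Each rat has 1 column of values per tissue, called an array here, and the 34 arrays fall into 4 groups named heart saline, heart DOX, PBMC saline and PBMC DOX. RNA was amplified and read on Illumina RatRef-12 BeadChips. All values below are log2 intensities on 1 probe per gene, the brightest, above the median of the array's probes not expressed, so that 0 is background. A gene was called higher or lower at an adjusted p under 0.05 by limma and a fold change over 2.

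SLC25 proteins sit mostly in the inner membrane of mitochondria and exchange substrates between the matrix and the cytosol. They let ADP and phosphate in and ATP out, move the malate and oxoglutarate that carry reducing equivalents, and supply the matrix with amino acids, nucleotides, cofactors and the glycine and glutathione used around heme and iron. The working heart lives on mitochondrial ATP, and its adenine nucleotide translocator is mainly the product of Slc25a4 (ANT1), whereas Slc25a5 (ANT2) is the form of dividing cells.

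The arrays differed in ways that touch every carrier. The median of the expressed probes lay between 1.14 and 1.59 on the heart saline arrays and between 0.24 and 0.73 on the heart DOX arrays (two-sided exact permutation test, p = 8.23e-05, adjusted p = 0.00011 over 4 array measures). Each heart saline array held 22196 to 22417 different probe values and each heart DOX array 2826 to 4802, so the treatment and the way these groups of arrays were processed or exported cannot be told apart. In the PBMC the sample labels and the study's own gene list run in opposite directions: the list treats saline 1 to 8, with DOX 1, as the exposed arrays (the DOX side) and DOX 2 to 9 as the unexposed ones (the control side). Label and side disagree on 16 of the 17 PBMC arrays and on 0 heart arrays, and the PBMC results are given both as labelled and by the sides of the list. Distinct values numbered 2804 to 5746 on the DOX side and 22278 to 22419 on the control side, so here too group and export cannot be told apart. The PBMC arrays labelled saline 6 and DOX 1 stand apart from the rest. They correlated with each other at r = 0.929 over the genes tested and with the other 7 arrays of their side at 0.590 to 0.837, against 0.829 to 0.980 among those 7. A description in the labels places the PBMC arrays in the left ventricle, but 8 of 8 cardiomyocyte markers measured, such as Myh6, had medians under 0.5 in both PBMC groups, and 5 of 5 T cell markers were above it.

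The upstream sequences of 27 of the 32 members, 16 of them tested, were matched in the RefSeq promoter table (build GRCr8), which gives 250 bases before to 50 bases after the start of a gene. Those of the carriers with the largest decreases in the heart, Slc25a3 (chr7:27506578-27506877, minus strand), Slc25a5 (chrX:120897366-120897665, plus strand) and Slc25a11 (chr10:55859011-55859310, minus strand), are shown with those of the heart translocator Slc25a4 (chr16:52805271-52805570, plus strand) and of Slc25a34 (chr5:159219843-159220142, minus strand), the only member whose window held the ERR-type motif searched. Capitals mark the motifs found, on either strand.
Slc25a3: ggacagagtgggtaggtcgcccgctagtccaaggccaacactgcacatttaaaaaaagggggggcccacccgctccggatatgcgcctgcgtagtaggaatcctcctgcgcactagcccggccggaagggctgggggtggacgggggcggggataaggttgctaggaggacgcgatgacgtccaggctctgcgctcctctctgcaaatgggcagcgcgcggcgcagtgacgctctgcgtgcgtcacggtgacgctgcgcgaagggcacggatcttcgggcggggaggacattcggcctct
Slc25a5: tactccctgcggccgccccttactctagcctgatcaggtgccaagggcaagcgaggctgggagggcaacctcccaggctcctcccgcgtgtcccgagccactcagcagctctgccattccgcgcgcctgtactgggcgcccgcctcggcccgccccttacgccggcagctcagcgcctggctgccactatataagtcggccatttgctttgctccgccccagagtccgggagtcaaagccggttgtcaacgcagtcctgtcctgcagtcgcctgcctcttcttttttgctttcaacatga
Slc25a11: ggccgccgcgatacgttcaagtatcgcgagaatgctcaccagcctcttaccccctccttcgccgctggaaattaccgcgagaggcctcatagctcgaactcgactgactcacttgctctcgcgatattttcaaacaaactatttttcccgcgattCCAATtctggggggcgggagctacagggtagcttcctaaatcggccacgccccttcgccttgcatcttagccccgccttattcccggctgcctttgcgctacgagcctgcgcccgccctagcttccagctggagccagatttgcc
Slc25a4: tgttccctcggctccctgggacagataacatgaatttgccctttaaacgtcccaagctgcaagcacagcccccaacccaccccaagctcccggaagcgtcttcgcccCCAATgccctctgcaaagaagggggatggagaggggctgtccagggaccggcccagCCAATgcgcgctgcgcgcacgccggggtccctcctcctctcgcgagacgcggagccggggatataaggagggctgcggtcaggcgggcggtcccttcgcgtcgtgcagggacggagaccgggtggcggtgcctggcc
Slc25a34: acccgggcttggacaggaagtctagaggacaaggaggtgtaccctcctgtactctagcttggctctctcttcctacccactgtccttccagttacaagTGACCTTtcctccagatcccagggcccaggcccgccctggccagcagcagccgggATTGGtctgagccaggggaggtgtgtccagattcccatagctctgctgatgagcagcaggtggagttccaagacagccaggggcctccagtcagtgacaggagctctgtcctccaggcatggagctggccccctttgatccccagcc
The motif CATGCGC, part of the site of the respiratory gene regulator NRF1, was in 0 of the 27 windows and in 3.77% of all 33469 windows of the table. The ERR-type motif AAGGTCA was in 1 of 27 windows and in 4.61% of all. The CCAAT motif was in 16 of 27 windows and in 37.5% of all, with 2 copies upstream of Slc25a4, 1 each upstream of Slc25a11 and Slc25a34, and no copy in the windows of Slc25a3 and Slc25a5. These are matches of letters only.

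In the heart, the first comparison asks which carriers differed between DOX and saline. With DOX, 12 of the 21 tested carriers were called lower and 1, Slc25a30, was called higher, where 48.0% of all genes tested were called lower and 1.36% higher. The median log2 fold change was -1.14 over the carriers and -0.94 over all genes. The groups did not overlap in 16 carriers that were lower and 1 that was higher, against 63.3% and 1.81% of all genes. Fewer heart cells of a type and less RNA per cell cannot be told apart in such bulk samples. For comparisons within a tissue, quantile normalization gave all arrays of that tissue the same distribution. For comparisons between tissues it was applied to the heart and PBMC arrays together, so its values there are not differences of the within-tissue values. In the heart it moved the median of all genes to -0.23 and left 6 carriers called lower and 2 called higher. Over all genes it called 1049 lower and 448 higher, against 3257 and 92 in the comparison as reported.

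**Figure D1:**
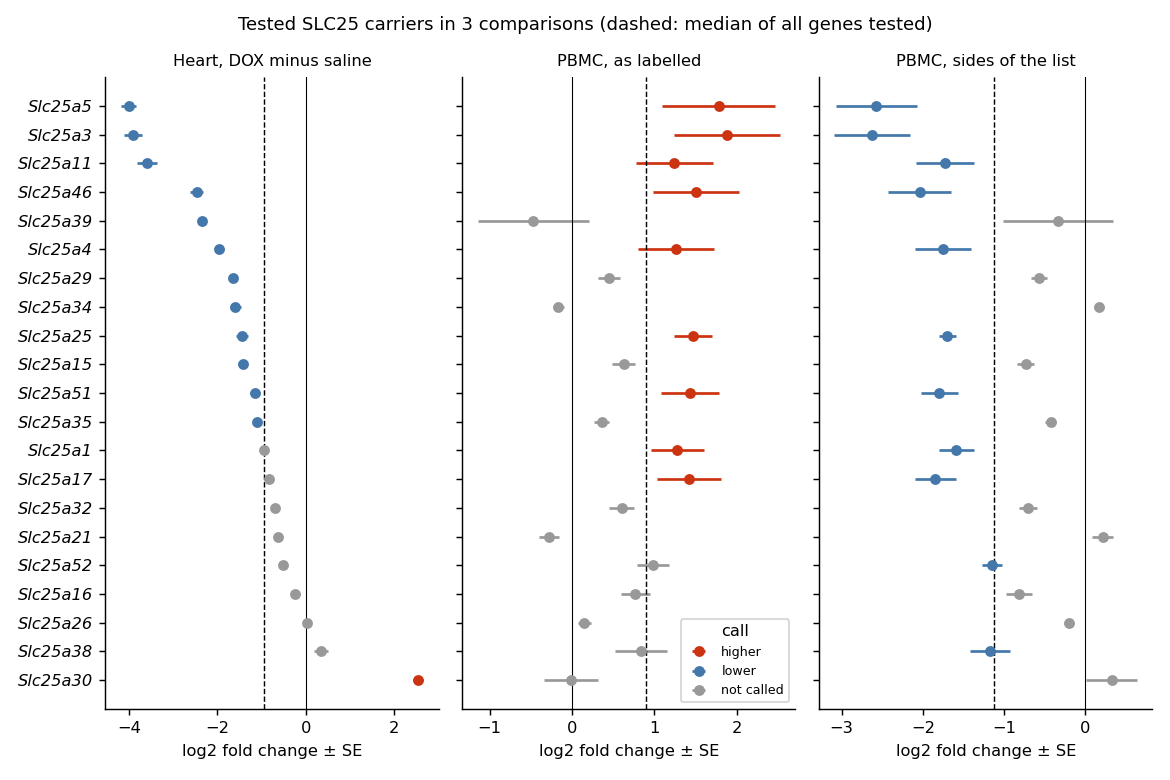
Log2 fold change (x axis, with its standard error) of the 21 tested carriers (y axis) for the heart, the PBMC as labelled and the PBMC by the sides of the list; red points were called higher, blue lower, and the dashed line is the median of all genes tested. In the heart 12 carriers lie among the blue points and Slc25a30 alone among the red, and the PBMC panels point in opposite directions; under quantile normalization Slc25a4 and Slc25a16 change sign in the heart, 10 carriers do so in the PBMC as labelled and 7 by the sides.

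The 4 tested carriers of phosphate, adenine nucleotides and ATP-Mg had a median of -2.93. Slc25a5, the ADP/ATP translocator of growing cells, read 4.88 to 5.74 (median 5.41) on the saline hearts and 0.35 to 1.83 (median 1.49) on the DOX hearts, so the groups lay far apart. The difference was -4.01 ± 0.18 (SE) on the log2 scale, or 16.1-fold lower, with an adjusted p of 1.97e-13. Slc25a3, which brings in the phosphate for ATP synthesis, ran from 7.09 to 7.55 (median 7.44) with saline and from 2.28 to 4.05 (median 3.73) with DOX. All 9 DOX hearts were below every saline heart, with a fold change of -3.91 ± 0.20 (adjusted p = 9.31e-13). The values of Slc25a4, the translocator of heart and muscle, were 7.57 to 8.05 (median 7.84) with saline and 5.25 to 6.23 (median 5.94) with DOX. Slc25a4 differed by -1.95 ± 0.11 (adjusted p = 3.83e-12) as scaled here and was 0.33 higher under quantile normalization, where it was not called (adjusted p = 0.0552). Slc25a25, a calcium-regulated carrier of ATP-Mg and phosphate, was called lower as well (-1.43 ± 0.13). All 4 tested members of this group were therefore called lower as scaled here, and 2 of them, Slc25a3 and Slc25a5, under quantile normalization. RefSeq lists pseudogenes close to Slc25a3, Slc25a4, Slc25a5 and Slc25a39, and whether their transcripts add to these probes was not tested.

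**Figure D2:**
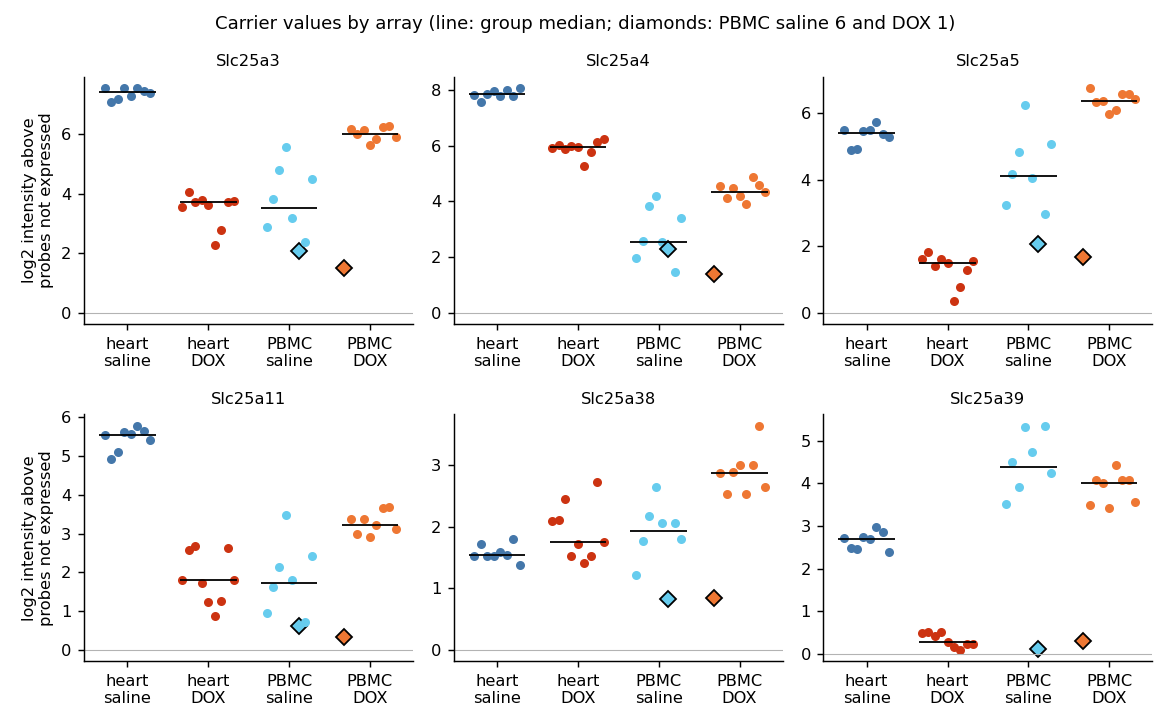
Log2 intensity above the probes not expressed (y axis) of 6 carriers on each of the 34 arrays by group (x axis), with the group median as a line and the PBMC arrays saline 6 and DOX 1 as diamonds. Heart saline and heart DOX do not overlap for Slc25a3, Slc25a4, Slc25a5, Slc25a11 and Slc25a39, and the diamonds lie below the other PBMC DOX arrays in all 6 panels; Slc25a4 is 0.33 higher with DOX in the heart under quantile normalization.

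Slc25a11 carries oxoglutarate out in exchange for malate in the malate-aspartate shuttle, which brings the reducing equivalents of NADH into mitochondria. On the saline hearts it read 4.91 to 5.78 (median 5.54) and on the DOX hearts 0.88 to 2.69 (median 1.80). The groups were separate, and it differed by -3.59 ± 0.24 (adjusted p = 4.63e-11). The other tested carriers of its group, Slc25a1 (citrate, -0.94 ± 0.06) and Slc25a21 (oxoadipate, -0.63 ± 0.06), passed the adjusted p but not the 2-fold limit.

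Slc25a39, which supplies mitochondria with glutathione, ran from 2.39 to 2.98 (median 2.70) with saline and from 0.09 to 0.52 (median 0.28) with DOX, that is, to near background. Its fold change was -2.34 ± 0.09 (adjusted p = 2.97e-14). Slc25a38, the carrier of glycine for heme synthesis, read 1.38 to 1.80 (median 1.54) on the saline hearts and 1.41 to 2.73 (median 1.75) on the DOX hearts. These ranges overlap and it was not called (0.35 ± 0.16, adjusted p = 0.0455), but it was called higher, by 1.60, under quantile normalization.

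Slc25a46, an outer membrane relative of the carriers that shapes mitochondria, read 2.67 to 3.40 (median 3.09) with saline and 0.07 to 1.01 (median 0.66) with DOX. It differed by -2.46 ± 0.15 (adjusted p = 1.32e-11). Slc25a29, a carrier of basic amino acids, read 1.46 to 1.86 (median 1.75) with saline and -0.03 to 0.15 (median 0.07) with DOX, a difference of -1.65 ± 0.06 (adjusted p = 7.77e-15). Both groups of arrays were separate for these carriers. The ornithine carrier Slc25a15 (-1.43), the orphan carriers Slc25a34 (-1.59) and Slc25a35 (-1.10) and the NAD carrier Slc25a51 (-1.14) were also called lower, each with a DOX median between -0.04 and 0.17. Under quantile normalization none of these 4 was called (-0.87, -0.95, -0.65 and -0.74). Slc25a34 passed the limit for testing only through the saline hearts, which favours a call lower with DOX. Of the 6 tested carriers of nucleotides and cofactors only Slc25a51 was called. The peroxisomal Slc25a17 differed by -0.82, the folate carrier Slc25a32 by -0.69, Slc25a52 by -0.50 and Slc25a16 by -0.23, while Slc25a26 differed by 0.04. Slc25a16 turned to 0.34 under quantile normalization. Where a DOX median lies at background, the fold change is limited by the saline level.

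Slc25a30 (KMCP1), a relative of the uncoupling proteins, was the only carrier called higher with DOX in the heart. Its brightest probe read 0.28 to 0.88 (median 0.55) on the saline hearts and 2.48 to 3.40 (median 3.11) on the DOX hearts. Every DOX heart was above every saline heart, by 2.55 ± 0.12 or 5.87-fold (adjusted p = 2.28e-13). The gene has 2 further probes, which are annotated to another transcript record than the brightest. The second ran from 0.08 to 0.20 with saline and from 0.21 to 0.68 with DOX, a difference of 0.27 ± 0.07. The third ran from 0.40 to 1.05 and from 0.49 to 0.97, a difference of 0.02 ± 0.09. The mean of all 3 probes differed by 0.95 ± 0.08 and was not called. The increase over 2-fold thus rests on 1 of 3 probes, and which transcript the brightest probe reads was not tested. On the PBMC arrays that probe was near background, 0.01 to 0.71 on 15 arrays, except on saline 6 with 2.55 and DOX 1 with 1.81. The second probe read -0.04 to 0.20 on the arrays labelled saline and 0.07 to 0.24 on those labelled DOX. The third read 0.07 to 0.41 and 0.51 to 1.04, with no overlap. It differed by 0.56 ± 0.09 as labelled and by -0.55 ± 0.09 by the sides, under the 2-fold limit. The sides overlap on it.

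**Figure D3:**
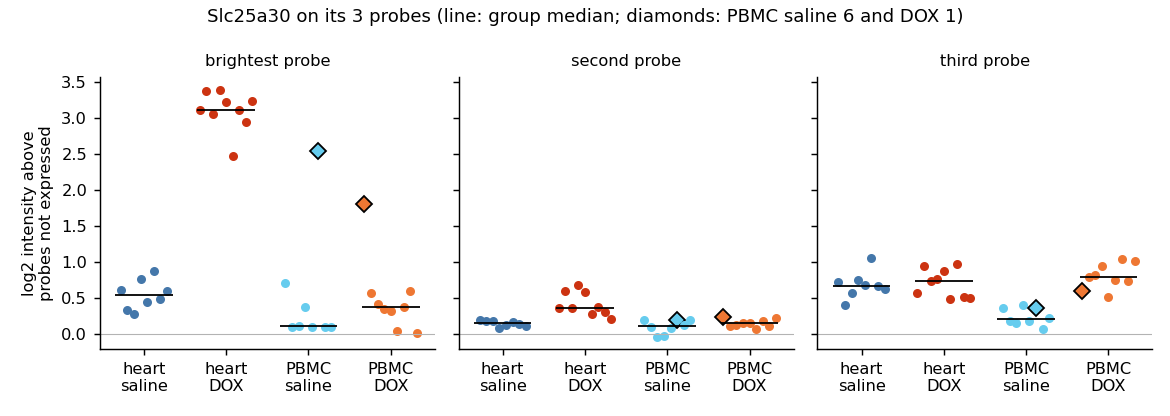
Log2 intensity above the probes not expressed (y axis) of the 3 probes of Slc25a30 on each array by group (x axis), with group medians as lines and the PBMC arrays saline 6 and DOX 1 as diamonds. The heart DOX arrays lie at 2.48 to 3.40 on the brightest probe and at 0.21 to 0.97 on the other 2, and on the brightest probe only the 2 diamonds are above 1 among the PBMC arrays.

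The 11 members below the limit had group medians up to 0.54 (Slc25a24, PBMC control side). Single arrays read up to 0.81 (Slc25a2, PBMC control side). In a fit of all genes without the limit none of the 11 was called in the heart or in the PBMC under either grouping. Their fold changes in the heart ran from -0.34 for the glutathione carrier Slc25a40 to 0.18 for Slc25a27 (UCP4).

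**Figure D4:**
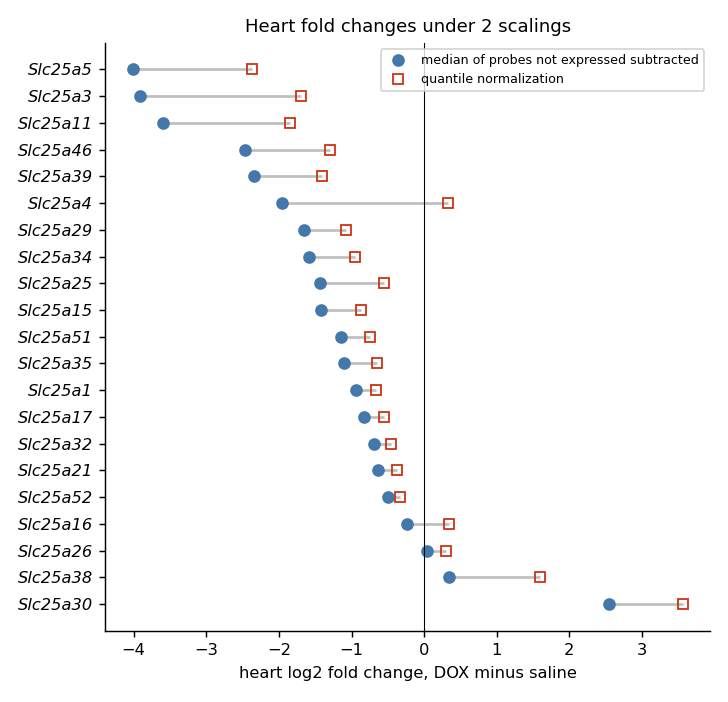
Heart log2 fold change, DOX minus saline (x axis), of the 21 tested carriers (y axis) as scaled here (filled circles) and after quantile normalization (open squares). Each carrier moves to the right, Slc25a4 from -1.95 to 0.33 and Slc25a16 from -0.23 to 0.34, while Slc25a5 stays lowest at -2.37 and Slc25a30 highest at 3.57.

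Summed markers of heart cells were lower with DOX, as most carriers were. The summed level of the 8 cardiomyocyte markers measured, of 10 listed, was 53.4 to 55.9 on the saline hearts and 34.4 to 44.0 on the DOX hearts (two-sided exact permutation test, p = 8.23e-05, adjusted p = 0.00011 over 4 array measures). Of the cardiomyocyte markers Myl2 went the other way (median 3.65 with saline and 4.87 with DOX). The 6 fibroblast markers summed to 18.8 to 29.0 on the saline hearts and to 4.28 to 12.4 on the DOX hearts. The 6 neutrophil markers summed to 0.83 to 2.72 and to 2.29 to 6.17. There S100a8 (medians 0.695 and 2.516) and S100a9 (-0.085 and 1.041) were higher with DOX, and Lcn2 was lower (0.827 and 0.133). The 4 endothelial markers measured summed to 7.77 to 9.51 and to 2.09 to 6.26. Cdh5 was higher (0.054 and 0.534) and Tek little changed (1.733 and 1.606). The 5 T cell markers were near 0 in both heart groups. Their part in the changes of the carriers was not tested.

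Genes that bring carriers into the inner membrane or act beside them were listed for comparison, 41 in all, of which 27 were tested. In the heart 16 were called lower and 1 higher, with a median of -1.63, where 48.0% of all genes were called lower and 1.36% higher with a median of -0.94. The largest decreases were in the porins Vdac3 (-3.35 ± 0.25) and Vdac2 (-3.20 ± 0.25) and in the pyruvate carrier subunit Mpc1 (-3.28 ± 0.13). Timm22, the channel that inserts carriers into the inner membrane, differed by -2.46. Timm13, a small chaperone that guides membrane proteins across the intermembrane space, was the one called higher (1.52). After quantile normalization 7 were called lower and 5 higher, with 1049 and 448 of all 6781 genes, and the sign turned in 9 of the 27, among them Vdac1, Timm10 and Timm8b of those called before.

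In the PBMC, the second comparison asks the same of the blood cells. As labelled, 9 of 21 carriers were called higher and 0 lower with DOX, where 44.4% of all genes were called higher and 0.767% lower. By the sides of the list, 11 were called lower and 0 higher on the DOX side, where 54.3% of all genes were called lower and 0.472% higher. At an unadjusted p under 0.05 in limma, without the 2-fold limit, 2 carriers were lower as labelled, Slc25a21 (-0.28) and Slc25a34 (-0.165). By the sides 1 was higher, Slc25a34 (0.16). These values are under the 2-fold limit, and the share of all genes at this unadjusted p is not given here. At the adjusted p and 2-fold limit used for calls, the fit with array weights called 0 in either case. The carriers had a median of 0.84 as labelled and -1.15 by the sides, and all genes 0.90 and -1.12. The groups overlapped in all 21 carriers as labelled, where 3.36% of all genes did not overlap and were higher and 0.0442% lower. By the sides, 7 carriers did not overlap and were lower on the DOX side and 0 were higher, against 38.4% and 0.118% of all genes. Without saline 6 and DOX 1, 10 carriers were called in either grouping, and the share of all genes so called is not given here. The 2 groupings then hold the same groups of arrays with the direction turned. The groups did not overlap in 7 carriers, against 41.4% of all genes.

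Slc25a3 and Slc25a5 had the largest differences of the 21 carriers in both groupings. Slc25a3 read 2.07 to 5.57 (median 3.52) on the arrays labelled saline and 1.51 to 6.29 (median 6.02) on those labelled DOX, and 1.51 to 5.57 on the DOX side against 5.64 to 6.29 on the control side. The ranges overlap as labelled and are separate by the sides. Its fold change was 1.88 ± 0.65 as labelled (adjusted p = 0.016) and -2.62 ± 0.46 by the sides (adjusted p = 5.97e-05). For Slc25a5 the values were 2.08 to 6.25 (median 4.12) with the label saline and 1.67 to 6.75 (median 6.36) with the label DOX, a difference of 1.78 ± 0.68 as labelled and -2.57 ± 0.50 by the sides. The call of Slc25a5 as labelled was lost without saline 1, saline 6 or saline 7 (1.49 to 1.66, adjusted p = 0.0522 to 0.0601). Slc25a4 ran from 1.47 to 4.20 (median 2.56) and from 1.40 to 4.88 (median 4.33), with 1.27 ± 0.46 as labelled and -1.75 ± 0.35 by the sides, and with a turned sign in both under quantile normalization (-0.29 and 0.11). Quantile normalization moved the median of all genes to 0.06 as labelled and -0.10 by the sides, with 464 genes called higher and 333 lower as labelled (3009 and 52 as reported) and 328 and 680 by the sides (32 and 3680). In all 3 carriers the control side was high and tight and the DOX side was spread widely.

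Outside that group, Slc25a46 ran from 0.60 to 3.48 (median 1.80) with the label saline and from 0.36 to 4.41 (median 3.64) with the label DOX. It differed by 1.503 ± 0.52 as labelled, with a turned sign (-0.08) under quantile normalization, and by -2.04 ± 0.39 by the sides. Slc25a17, the peroxisomal carrier of coenzyme A and related cofactors, read 0.30 to 2.17 (median 1.07) and 0.10 to 3.30 (median 2.82), with 1.42 ± 0.38 as labelled, -0.09 under quantile normalization, and -1.85 ± 0.25 by the sides. Its sides did not overlap. The NAD carrier Slc25a51 ran from -0.10 to 1.83 (median 0.81) with the label saline and from 0.02 to 2.81 (median 2.43) with the label DOX, with 1.43 ± 0.35 and -1.80 ± 0.23. Slc25a25 read 0.04 to 0.68 (median 0.15) and 0.03 to 2.16 (median 1.94), with 1.47 ± 0.24 and -1.70 ± 0.10. Among the arrays labelled DOX only DOX 1 was near background for Slc25a25. The oxoglutarate carrier Slc25a11 read 0.61 to 3.49 (median 1.72) and 0.35 to 3.70 (median 3.22), with 1.24 ± 0.46 and -1.72 ± 0.36, with turned signs under quantile normalization (-0.34 and 0.0024), and its call as labelled was lost without saline 6 or saline 7 (1.08 and 1.10). The citrate carrier Slc25a1 was called in both groupings too (1.28 and -1.59).

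Slc25a52 (-1.15 ± 0.13) and Slc25a38 (-1.18 ± 0.24) were called by the sides and not as labelled (0.98 and 0.84). As labelled, Slc25a52 passed when any 1 of saline 4, saline 5, DOX 1 or DOX 2 was left out. Slc25a38 did so when DOX 1 was left out (1.07). Slc25a38 read 0.82 to 2.64 (median 1.79) on the DOX side and 2.52 to 3.63 (median 2.88) on the control side, ranges that overlap. Its sign turned to 0.61 under quantile normalization, and without saline 6 and DOX 1 it was not called (-0.93). Under quantile normalization of the PBMC arrays, 1 carrier was called lower as labelled (Slc25a39, -1.75) and 2 by the sides (Slc25a3, -1.07, and Slc25a5, -1.09).

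Cell type markers differed between the groups of PBMC arrays. The 5 T cell markers summed to 12.7 to 29.9 on the DOX side and to 30.4 to 32.9 on the control side (two-sided exact permutation test, p = 8.23e-05, adjusted p = 0.00011 over 4 array measures). As labelled they summed to 12.7 to 29.9 with saline and 12.9 to 32.9 with DOX, ranges that overlap (same exact permutation test, p = 0.0107, adjusted p = 0.0143). The 3 B cell markers measured ran from 1.79 to 6.23 and from 6.47 to 10.953, and the 6 neutrophil markers from 6.83 to 14.6 and from 0.13 to 5.09, with no overlap between the sides. As labelled both lists overlap, at 1.87 to 6.23 with saline and 1.79 to 10.953 with DOX for B cells and at 6.83 to 14.6 and 0.13 to 11.4 for neutrophils. The neutrophil sums were carried by S100a8, S100a9 and Mmp8, while Mpo, Elane and Lcn2 had medians under 0.5 in both labelled groups. The part of the cell types in the differences of the carriers was not tested.

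Slc25a39 followed another pattern in the PBMC, in that 2 arrays set its spread. It read 3.43 to 5.35 (median 4.08) on 15 PBMC arrays, 0.12 on saline 6 and 0.31 on DOX 1. With those arrays it differed by -0.47 ± 0.68 as labelled and by -0.33 ± 0.68 by the sides. Without them it was 0.62 ± 0.26 lower on the arrays labelled DOX (adjusted p = 0.0399), which is below the 2-fold limit. Red cell genes were also low on those 2 arrays, although the cells came from a Ficoll gradient, which is used to remove red cells. Alas2, the first enzyme of heme synthesis in red cell precursors, read 0.19 and 0.16 there and 0.93 to 5.47 on the other 15, and Ahsp, which stabilizes alpha hemoglobin, 0.61 and 0.64 against 2.16 to 7.28. The 7 red cell markers measured, of 10 listed, summed to 11.4 and 13.1 on the 2 arrays and to 16.4 to 34.7 on the others. Other cell types were low there too. The 4 platelet markers summed to 12.2 and 10.8 against 19.6 to 27.5, and the 5 T cell markers to 12.7 and 12.9 against 15.1 to 32.9, while the 6 neutrophil markers, at 13.0 and 11.4, lay within the 0.13 to 14.6 of the others. Hba-a2 was near 0 in all groups, and the part of red cells or of any other cell type in the level of Slc25a39 was not tested.

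**Figure D5:**
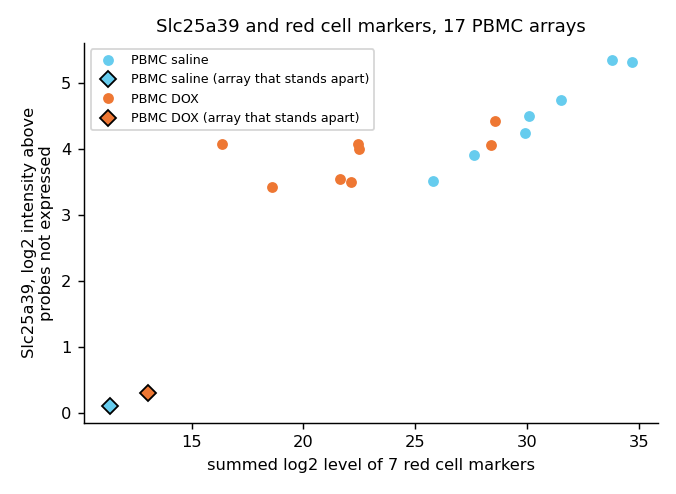
Slc25a39 log2 intensity above the probes not expressed (y axis) against the summed log2 level of 7 red cell markers (x axis) on the 17 PBMC arrays, coloured by label, with saline 6 and DOX 1 as diamonds. Both diamonds lie at 0.12 and 0.31 with marker sums of 11.4 and 13.1, away from the other 15 arrays at 3.43 to 5.35.

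The effects in the 2 tissues were set against each other in a fit of all 34 arrays, by subtracting the heart effect from the PBMC effect. By the sides of the list, 6 carriers were called higher in this difference and 3 lower, where 14.3% of all genes were called higher and 19.1% lower. Slc25a39 (2.01 ± 0.69), Slc25a11 (1.87 ± 0.44), Slc25a34 (1.75 ± 0.14), Slc25a5 (1.44 ± 0.54), Slc25a3 (1.28 ± 0.51) and Slc25a29 (1.08 ± 0.11) were called higher in it. Of these, Slc25a34 was at background on all PBMC arrays (0.16 by the sides), so that no decrease could be seen there. It also passed the limit for testing only through the saline hearts. Slc25a39 in the PBMC turned from -0.33 to 0.62 by the sides without saline 6 and DOX 1. Slc25a29 read 0.58 to 1.02 on the control side and 1.46 to 1.86 on the saline hearts. A smaller decrease could therefore be seen for it in the PBMC than in the heart. The call of Slc25a3 was lost without the PBMC array saline 3 or saline 8 or the heart array DOX 6 (1.11 to 1.15). Slc25a30 (-2.23 ± 0.34), Slc25a38 (-1.52 ± 0.29) and Slc25a17 (-1.02 ± 0.26) differed the other way, the last of these with a turned sign (0.36) under quantile normalization and with -0.78 and no call without saline 6 and DOX 1. Its call was also lost when any 1 of 7 arrays was left out, PBMC saline 1, 6 or 7, PBMC DOX 1, 4 or 8, or heart saline 8 (-0.999 to -0.905), since its value lies at the 2-fold limit. Slc25a4 did not pass the test (0.20 ± 0.37, adjusted p = 0.661). As labelled, 16 carriers were called higher and 1, Slc25a30, lower, where 74.1% of all genes were called higher and 1.40% lower. Quantile normalization of all 34 arrays together left 7 higher and 2 lower, and the shares of all genes under it are not given here. Slc25a4 (3.22 to -0.54) and Slc25a39 (1.87 to -0.10) then turned sign and were not called. Of the 12 carriers called lower in the heart, 7 were also called lower on the DOX side of the PBMC, where 11 were called. The same 7 were called higher as labelled. Over all genes, 48.0% were called lower in the heart, 54.3% lower on the DOX side and 44.4% higher as labelled. The share of all genes called in both tissues is not given here. Whether the overlap of the 7 carriers is larger than that of other genes was not tested.

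The last comparison sets the level of each carrier in saline hearts against the blood. Heart saline was compared with the arrays labelled PBMC saline and with the control side. The saline hearts held 22196 to 22417 distinct values per array and the PBMC saline arrays 2804 to 5746. Tissue and the way the arrays were processed or exported thus cannot be told apart against PBMC saline. The control side held 22278 to 22419. Against PBMC saline, 9 carriers were called higher in the heart and 1 lower, where 38.9% of all genes were called higher and 6.05% lower. Against the control side 4 were called higher and 8 lower, where 16.0% and 29.7% of all genes were so called. Slc25a4, the translocator of heart and muscle, was 5.07 ± 0.35 higher in the heart than on the PBMC saline arrays and 3.47 ± 0.27 higher than on the control side. The heart values of 7.57 to 8.05 lay above every PBMC array. Slc25a11 (3.72 ± 0.39 and 2.15 ± 0.32) and Slc25a3 (3.73 ± 0.50 and 1.35 ± 0.37) were higher in the heart under both groupings, as was the orphan carrier Slc25a34 (1.67 ± 0.10 and 1.85 ± 0.10). Slc25a34 read 1.32 to 2.40 (median 1.63) on the saline hearts and -0.32 to 0.15 over the PBMC arrays. Its averages were 1.69 on the saline hearts, 0.10 on the DOX hearts, 0.02 on PBMC saline and -0.14 on PBMC DOX. It thus passed the limit for testing only through the saline hearts, which favours a call higher there. The sister translocator Slc25a5 was 1.25 ± 0.52 higher in the heart than on the PBMC saline arrays and 1.05 lower (-1.05 ± 0.39) than on the control side. Its direction thus depends on which PBMC arrays are taken as untreated. The first call was lost without PBMC saline 1, 6 or 7 or heart saline 6 (0.97 to 1.19). The second was lost without PBMC DOX 2 or heart saline 2 or 3 (-0.999 to -0.986). Under quantile normalization of the heart and PBMC arrays together, Slc25a5 was called in neither (0.25 and -0.55).

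On the side of the blood, Slc25a39 was lower in the heart than on the PBMC saline arrays (-1.29 ± 0.50) and on the control side (-1.22 ± 0.50), and without saline 6 and DOX 1 the first difference was -1.84 ± 0.20. That call was lost without PBMC saline 4 or saline 7 alone (-1.10 in each case). Slc25a17 was called lower in the heart, with -2.04 ± 0.19 against the control side (adjusted p = 1.46e-11), with 0.68 to 1.07 (median 0.86) on the saline hearts. Slc25a51 (-1.36 ± 0.19) and Slc25a38 (-1.31 ± 0.21) followed, and the saline hearts, at 0.67 to 1.65 for Slc25a51 and 1.38 to 1.80 for Slc25a38, were below every array of the control side. None of these 3 was called against the arrays labelled PBMC saline. Under quantile normalization of both tissues together, Slc25a39 (-0.59), Slc25a51 (-0.655) and Slc25a38 (-0.60) were not called against the control side. Slc25a17 (-1.14) still was. Against PBMC saline, Slc25a39 (-2.01), Slc25a38 (-1.27) and Slc25a17 (-1.05) were then called lower in the heart.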

How the data were processed

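The members and the gene lists were chosen with earlier results of these data known. Amplified cDNA was hybridized, intensities were exported without background subtraction, and the authors deposited log2 values of 22523 probes centred on each array's median. Repeat arrays of 7 rats were also run, and how they enter the 34 columns is not stated. Deposited raw intensities, in 34 columns whose numbers match no label, were not used.

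Here, the median of the 13107 probes whose average over the 34 arrays was at or below 0.15 was subtracted from each array. Symbols came from the platform annotation: 13793 probes had 1 symbol, 8730 none and 0 several, and 13752 were found in the RefSeq gene table (GRCr8). The probe with the highest average stood for a gene. Linear models of group means without a block were fitted in R 4.3.3 with limma 3.58.1 and moderated by eBayes, and p-values were adjusted by Benjamini and Hochberg's method across all 6781 genes. The PBMC arrays were grouped by label and by the sides of the study's list. Errors are moderated standard errors. Array measures were compared by exact permutation over 24310 splits (scipy 1.17.1). Values by array were given for carriers called higher in a DOX comparison with fewer than 6 so called, the 8 largest heart changes, the 6 largest PBMC changes, the 4 largest tissue differences each way, and Slc25a3, Slc25a4, Slc25a5, Slc25a11 and Slc25a38. The test was tested on simulated data with known shifts in part of the 6781 genes. Each rat is a separate animal, and the methods number heart and PBMC samples by rat. Deviations from the group means of same-numbered heart and PBMC samples correlated at -0.18 to 0.11 (saline) and -0.10 to 0.15 (DOX). Between DOX and saline a number is only a number. Alternatives were another centring, quantile normalization, other filters, the mean of probes, array weights, a t-test, a replicate block and leaving out arrays.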

Additional observations from a re-analysis of the deposited data

Results flagged for a closer look

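Single arrays far from the others of their labelled group were looked for in 84 sets of values (21 carriers in 4 groups), of which chance alone would pick about 5%. There were 23 such values. Most belong to the PBMC array DOX 1, which was the lowest of its group for Slc25a1 (-0.06), Slc25a3 (1.51), Slc25a4 (1.40), Slc25a5 (1.67), Slc25a11 (0.35), Slc25a17 (0.10), Slc25a25 (0.03), Slc25a29 (-0.03), Slc25a35 (0.16), Slc25a38 (0.85), Slc25a39 (0.31), Slc25a46 (0.36), Slc25a51 (0.02) and Slc25a52 (0.32) and the highest for Slc25a30 (1.81). PBMC saline 6 was far above its group for Slc25a30 (2.55) and far below it for Slc25a39 (0.12). PBMC saline 4 was the highest of its group for Slc25a15 (0.69), Slc25a16 (1.87) and Slc25a32 (0.54). In the heart, DOX 6 was the lowest for Slc25a4 (5.25) and Slc25a30 (2.48) and DOX 5 for Slc25a35 (-0.17).

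The effect of DOX differed between the tissues, as PBMC minus heart, by the sides of the list for Slc25a11 (1.87), Slc25a17 (-1.02), Slc25a29 (1.08), Slc25a3 (1.28), Slc25a30 (-2.23), Slc25a34 (1.75), Slc25a38 (-1.52), Slc25a39 (2.01) and Slc25a5 (1.44). As labelled it differed for Slc25a1 (2.22), Slc25a11 (4.83), Slc25a15 (2.05), Slc25a17 (2.24), Slc25a25 (2.90), Slc25a29 (2.10), Slc25a3 (5.79), Slc25a30 (-2.57), Slc25a32 (1.29), Slc25a34 (1.43), Slc25a35 (1.46), Slc25a39 (1.87), Slc25a4 (3.22), Slc25a46 (3.97), Slc25a5 (5.79), Slc25a51 (2.57) and Slc25a52 (1.48). Quantile normalization of the heart and PBMC arrays together turned Slc25a4 to -0.54 and Slc25a39 to -0.10 as labelled. It turned Slc25a17 to 0.36 by the sides, and none of the 3 was called. The values of Slc25a30 rest on its brightest probe, and Slc25a34 passed the limit for testing only through the saline hearts. Among all genes tested, 74.1% were called higher in the difference as labelled and 1.40% lower. By the sides the shares were 14.3% and 19.1%.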

How the results depend on the processing

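The 12 and 1 carriers called lower and higher in the heart stayed at 12 and 1 with the deposited centring alone, no filter, the mean of a gene's probes above the filter (2 of 3 for Slc25a30), array weights, the t-test, the replicate block, and with any 1 heart array left out. Quantile normalization left 6 and 2, and an average above 1, which tests fewer genes, 6 lower. As labelled, the PBMC had 0 higher and 1 lower after quantile normalization and 7 to 11 higher with 1 array left out. The t-test with unequal variances called 0 lower as labelled and 0 higher by the sides. By the sides, 2 were lower after quantile normalization, 7 with an average above 1, and 11 with any 1 array left out. Over all genes, quantile normalization called 448 higher and 1049 lower in the heart, 464 and 333 in the PBMC as labelled and 328 and 680 by the sides, against 92 and 3257, 3009 and 52, and 32 and 3680 as reported. The difference between tissues as labelled gave 7 higher and 2 lower after quantile normalization and 7 higher with an average above 1, and by the sides 5 to 6 higher and 2 to 3 lower with 1 array left out. For heart saline against PBMC as labelled, an average above 1 gave 5 higher, quantile normalization 3 lower, and leaving out 1 array 0 to 1 lower. Against the control side, quantile normalization gave 1 lower and an average above 1 gave 4. Counts of all genes for the other alternatives and for the comparisons between tissues under them are not given here.

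Quantile normalization turned the sign of 19 fold changes between DOX and saline. These were Slc25a4 (0.33) and Slc25a16 (0.34) in the heart, then Slc25a4 (-0.29), Slc25a11 (-0.34), Slc25a16 (-0.44), Slc25a17 (-0.093), Slc25a26 (-0.28), Slc25a29 (-0.044), Slc25a35 (-0.13), Slc25a38 (-0.69), Slc25a46 (-0.082) and Slc25a52 (-0.012) in the PBMC as labelled, and Slc25a4 (0.11), Slc25a11 (0.0024), Slc25a16 (0.65), Slc25a26 (0.22), Slc25a35 (0.10), Slc25a38 (0.61) and Slc25a39 (1.12) by the sides. In the difference between tissues 6 signs turned as labelled and 7 by the sides, and for the saline heart against the PBMC 6 and 2. The cause was not tested. In the PBMC, Slc25a30 as labelled turned to 0.27 with the mean of probes, 0.063 with array weights, 0.045 with the replicate block and 0.11 without saline 6 and DOX 1, and ran from -0.18 to 0.27 with 1 array left out. By the sides it turned to -0.11 with the mean of probes and -0.11 without those 2 arrays. Slc25a39 by the sides turned to 0.37 with array weights, 0.088 with the replicate block and 0.62 without the 2 arrays, and ran from -0.56 to 0.10 with 1 array left out. On its other probes the heart fold change of Slc25a30 was 0.27 and 0.02, and as the mean of all 3 it was 0.95, under the 2-fold limit, so that the only call higher was lost. These were added after seeing the data.

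The replicate block left the counts at 12 lower in the heart, 9 higher in the PBMC as labelled and 11 lower by the sides, and changed no call of a carrier. Deviations of same-numbered DOX and saline arrays correlated at -0.14 to 0.15 in the heart and -0.42 to 0.78 in the PBMC. With the rat as block, 16 carriers were called higher and 1 lower in the difference between tissues as labelled. The sides move PBMC arrays across treatments, so no rat block was run for them. Signal over background limits what can be seen: 11 of 32 members averaged at or below 0.15 over the arrays, and a decrease of a carrier already near 0 with saline cannot be seen.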
